A study of Mus musculus with 20 samples.

Results

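The 4 genes described here are 3 forkhead box O (FoxO) transcription factors, Foxo1, Foxo3 and Foxo4, and Depp1. These genes were chosen by name, with earlier results of these data known, out of 25292 genes with a usable probe. They were read by 6 probes: Foxo1 and Foxo3 by a pair each, Foxo4 and Depp1 by 1 each. The study measured mouse muscle transcripts on 20 one-colour Agilent arrays, with 1 muscle sample hybridised to each. All mice were males of the ICR strain, 6 months old, caged singly with free access to food and water. In the control arm 5 mice moved freely. In the other arm 5 mice spent 24 h in hind-limb suspension (HLS), held by the tail at a head-down tilt of 45 degrees so that the hind legs bore no weight. The soleus, which holds posture and has many slow fibres, and the gastrocnemius, in which fast fibres prevail, came from the same animal, which gave 4 groups of 5 arrays. The animals of a group are separate mice.

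FoxO factors are the transcription factors that insulin and growth factor signalling hold back: the kinase AKT phosphorylates them, 14-3-3 proteins bind them, and they leave the nucleus. When that signal falls they enter the nucleus and switch on genes of the ubiquitin ligases atrogin-1 and MuRF1, of autophagy and of stress defence, and in skeletal muscle they are known for driving atrophy. Much of this control acts on the protein, which these arrays did not measure. Depp1 is a gene known in other cell types to be switched on by FoxO factors and by fasting or progestins, and its protein has been linked to autophagy and oxidative stress.

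Because Depp1 was the member whose transcript rose, the sequence upstream of its start is given first. From RefSeq, on build GRCm38.p6, the 250 bases before the Depp1 start lie on the plus strand at chr6:116650434-116650683, and the capitals mark the match to a FoxO-type motif:
Depp1: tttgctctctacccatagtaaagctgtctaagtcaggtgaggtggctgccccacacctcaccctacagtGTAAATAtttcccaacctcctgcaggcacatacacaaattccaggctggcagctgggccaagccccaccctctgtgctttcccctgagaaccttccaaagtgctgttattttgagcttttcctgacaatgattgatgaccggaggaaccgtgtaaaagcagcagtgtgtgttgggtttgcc
Promoter sequences for Foxo1 and Foxo3 were matched as well. A set of 4 motifs was searched on both strands, chosen after the Depp1 sequence had been read. Of 32851 promoter windows of the same length, 2.73% held GTAAATA, 3.17% held GTAAACA, 4.16% held ATAAACA and 5.56% held CAAAACA. In the Depp1 window GTAAATA was found once, on the strand of the gene, starting 181 bases before the start and overlapping no other match, and the other 3 were not found there. None of the 4 was found in the windows of Foxo1 and Foxo3. A match describes the letters and was not tested as a binding site. The Depp1 window held 50.8% G and C, against a median of 52.4% over all windows, 56% for Foxo1 and 76.4% for Foxo3.

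Values below are log2 of the spot intensity over the 75th percentile of its array, so 0 is the level of that percentile and a step of 1 is a doubling. They compare 1 probe between arrays and not probes with each other. A call is an adjusted p under 0.05 from limma, with Benjamini-Hochberg adjustment over all genes, or over all probes where a second probe is given. The 75th percentile lay between 385.5 and 736.1 intensity units, and 80.7% to 93.1% of non-control spots were well above background. All 9 slow fibre genes of a marker list were called higher in soleus than in gastrocnemius of controls. Of 11 fast fibre genes, 6 were called lower and 3 higher in that comparison, where 33.6% of all genes were called in either direction. The soleus array of HLS animal 1 stood apart: its slow fibre genes summed to 849.1, in multiples of the percentile, against at least 1812 on the control soleus arrays, and Tnni1, the slow troponin I, read 4.15 against 6.72 to 7.35 on the other 4 soleus HLS arrays. On the soleus array of HLS animal 1 the fast fibre genes summed to 4408. Control soleus arrays ran from 2111 to 3091 and gastrocnemius arrays from 2635 to 3547. The soleus differences of Depp1 are given with and without the soleus array of HLS animal 1.

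Depp1 rose in both muscles after 24 h of suspension. In soleus the control animals 1 to 5 read 1.36, -0.30, -0.11, 0.33 and 0.22. The suspended animals 1 to 5 read 4.26, 2.30, 2.63, 1.68 and 3.36. Every suspended soleus was above every control soleus, and the gap lay between HLS animal 4 and control animal 1. The means were 0.30 ± 0.65 in controls and 2.85 ± 1.00 after suspension (SD, n = 5 each). The difference of 2.55 ± 0.48 (SE) is a 5.84-fold rise with a 95% interval of 2.93 to 11.7 (limma, adjusted p = 0.00205). Depp1 was the 1 gene of the 4 called in soleus, where 5.95% of all genes were called and 5.06% had groups that did not overlap. By size of rise it ranked at place 3 of 25292 genes in soleus, and by limma p, in either direction, at place 390.

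In gastrocnemius the control values of Depp1 were 1.13, -0.16, 0.80, -0.68 and -0.70 in animals 1 to 5. After suspension they were 3.17, 1.16, 1.72, 1.24 and 2.34. The groups did not overlap, but the lowest suspended animal (1.16) and the highest control (1.13) nearly touched. The group means were 0.08 ± 0.85 and 1.92 ± 0.84 (SD, n = 5 each). The rise of 1.85 ± 0.48 (SE) is 3.6-fold, with a 95% interval of 1.80 to 7.18 (limma, adjusted p = 0.0356). Again Depp1 was the 1 called gene of the 4, against 3.17% of all genes called and 7.41% with groups that did not overlap. It ranked at place 6 of 25292 by size of rise and at place 681 by limma p, in either direction. The gastrocnemius call was lost without control 2, 4 or 5 or without HLS 1, 3 or 5, with rises of 1.54 to 1.90 and adjusted p of 0.0618 to 0.103, while the soleus call held without any 1 array (2.19 to 2.84, adjusted p of 0.00103 to 0.00825), and was 2.19 (adjusted p = 0.00628) without HLS 1.

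Slide and scan day were not balanced over the groups. On the 1 slide that held soleus arrays of both arms, control 5 (0.22) stood beside HLS 1, 2 and 3. The difference with slide as a block was 2.85 (adjusted p = 0.353), and 2.25 (adjusted p = 0.514) without HLS 1. A block for scan day gave 2.77 (adjusted p = 0.00516), and 2.17 (adjusted p = 0.0532) without HLS 1. On the 1 slide shared by both arms in gastrocnemius, controls 3 to 5 stood beside HLS 1, the highest of its group, and the difference was 3.36 (adjusted p = 0.2). A block for scan day, which in gastrocnemius also rests on HLS 1 against the controls, gave 3.09 (adjusted p = 0.144). With slide as a random block both calls held, at 2.54 (adjusted p = 0.00144) and 1.81 (adjusted p = 0.0318). The rise therefore had its direction within the shared slides, which hold 1 control or 1 suspended array each.

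**Figure D1:**
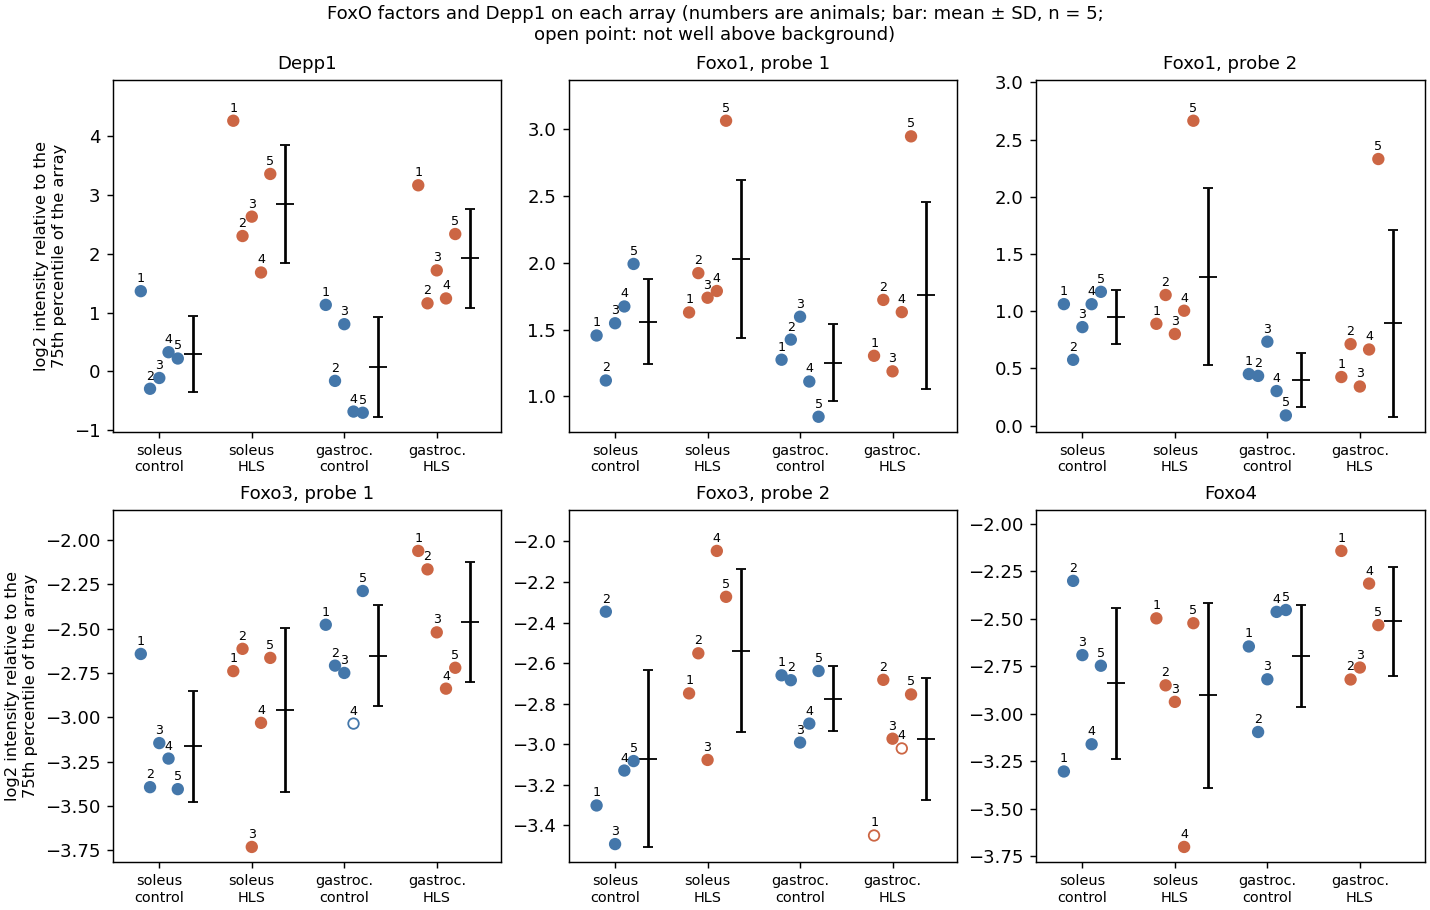
Each point is 1 array, numbered by animal, for the 6 probes of the 4 genes; the vertical axes show log2 intensity over the 75th percentile of its array, and bars show mean ± SD (n = 5). The suspended animals lie above all controls for Depp1 in both muscles, and HLS animal 5 lies above the rest for both Foxo1 probes. Open points were not well above background.

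Depp1 varied more between animals than most genes did. Its pooled SD within groups was 0.84, larger than that of 99.2% of genes, whose median SD was 0.24. Among suspended mice the order from highest to lowest was animal 1, 5, 3, 2, 4 in soleus and 1, 5, 3, 4, 2 in gastrocnemius. Among controls, animal 1 was highest in both muscles, but the others did not keep their order: it was animal 1, 4, 5, 3, 2 in soleus and 1, 3, 2, 4, 5 in gastrocnemius. With 5 animals an arm, this order is a description.

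Within each suspended animal Depp1 was higher in soleus than in gastrocnemius, by 1.10, 1.14, 0.91, 0.44 and 1.02 in animals 1 to 5. The control animals gave 0.23, -0.13, -0.91, 1.01 and 0.92, positive in 3 of 5. The soleus excess after suspension was 0.92 (limma, adjusted p = 0.149), and it passed the test with the animal as a block (adjusted p = 0.0119), the fit that uses the pairing of the muscles. Without the soleus array of HLS 1 the excess was 0.57 (adjusted p = 0.365), and 0.88 with the animal as a block (adjusted p = 0.0332), where that animal no longer counts. No slide held both muscles, so slide and muscle cannot be told apart; a block for scan day gave an excess of 1.45 (adjusted p = 0.0634). In controls the difference was 0.22 (adjusted p = 0.75). Whether the HLS effect itself differed between the muscles was tested directly: the soleus effect was larger by 0.70 ± 0.68 (SE, limma, adjusted p = 0.947), with a 95% interval from -0.71 to 2.11. Without the soleus array of HLS 1 that difference was 0.35 (adjusted p = 0.955). Over animals an exact two-sided permutation test of the soleus minus gastrocnemius values gave p = 0.0714, where the smallest p this design allows is 0.00794. A larger rise in soleus was thus not shown.

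**Figure D2:**
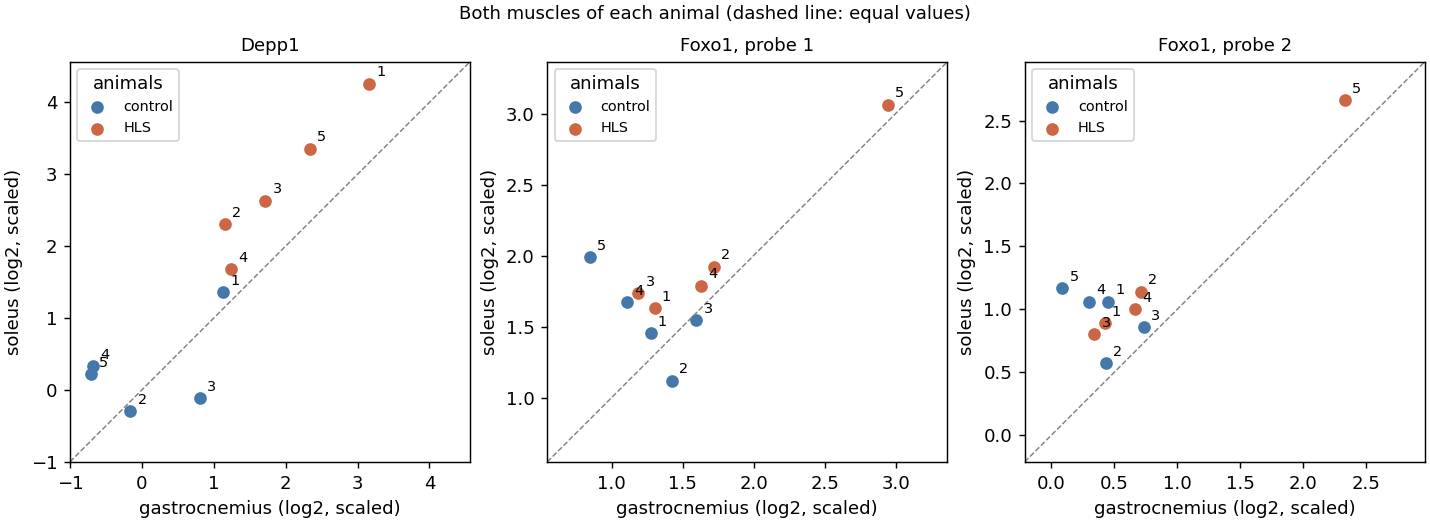
Each point is 1 animal, numbered within its arm, with the gastrocnemius value on the horizontal axis and the soleus value on the vertical axis (log2 over the 75th percentile of the array), for Depp1 and both Foxo1 probes. For Depp1 all 5 suspended animals lie above the dashed line of equal values, and HLS animal 5 lies far from the rest for Foxo1 in both muscles.

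Endothelial cells and fat cells, in which Depp1 has been studied, lie within muscle, so their markers were read beside it. In a bulk sample a change in the number of cells of a type and a change in RNA per cell cannot be told apart. Of 12 endothelial markers, all with a usable probe, limma called 0 higher and 1 lower in each muscle after suspension. At an unadjusted p under 0.05, 3 were higher in soleus and 0 in gastrocnemius, and 2 were lower in each. Over all genes, 9.44% were higher and 8.5% lower in soleus at that unadjusted p, and 6.82% and 7.84% in gastrocnemius. Their summed level ran from 72.4 to 84.7 in control soleus and 64.3 to 76.9 in suspended soleus, and from 54.4 to 60.5 and 49.1 to 65.1 in gastrocnemius. Of 10 fat cell markers 1 was called higher and 0 lower in each muscle. At an unadjusted p under 0.05, 1 was higher and 2 lower in soleus, and 3 were higher and 0 lower in gastrocnemius. The fat cell sum ran from 271.0 to 561.4 in control soleus and 250.2 to 526.7 in suspended soleus. In gastrocnemius it ran from 139.7 to 156.2 and 155.6 to 207.9. HLS animal 1, the highest for Depp1, had the lowest fat cell sum of the suspended soleus arrays. In gastrocnemius HLS 5 and HLS 1, the 2 highest for Depp1 there, had the highest fat cell sums (207.9 and 175.4), and HLS 2 and HLS 4, the 2 lowest, had the lowest (155.6 and 157.0). The mean log2 level of the same markers did not keep that order: HLS 1 to 5 read 1.52, 1.64, 1.27, 1.16 and 1.58. By that measure HLS 2, the lowest for Depp1, was the highest, and the gastrocnemius controls ran from 1.34 to 1.59. Satellite cell markers, 5 of 6 with a usable probe, summed to 4.87 to 5.11 in control soleus and 5.63 to 6.32 in suspended soleus, without overlap, with 2 called higher and 1 lower. The part of these cells in the rise of Depp1 was not tested.

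Foxo1, the FoxO factor most often tied to fasting metabolism in muscle, was not called in either muscle, and its values turned on 1 animal. By probe 1 the control soleus values were 1.46, 1.12, 1.55, 1.67 and 1.99, and the suspended values 1.63, 1.92, 1.74, 1.79 and 3.06. In gastrocnemius the controls read 1.27, 1.42, 1.60, 1.11 and 0.85, and the suspended animals 1.30, 1.72, 1.19, 1.63 and 2.95. HLS animal 5 was more than 1 unit above every other suspended animal in both muscles, while the other 4 overlapped the controls. The mean difference was 0.47 ± 0.29 in soleus (SE, limma, adjusted p = 0.436) with a 95% interval from -0.14 to 1.08. In gastrocnemius it was 0.51 ± 0.29 (adjusted p = 0.462), from -0.10 to 1.12. Without HLS animal 5 the differences were 0.21 (adjusted p = 0.796) in soleus and 0.21 (adjusted p = 0.81) in gastrocnemius.

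The second Foxo1 probe gave the same picture. Its suspended soleus values were 0.89, 1.14, 0.80, 1.00 and 2.66 against 1.06, 0.58, 0.86, 1.06 and 1.17 in controls. Its suspended gastrocnemius values were 0.43, 0.71, 0.34, 0.67 and 2.33 against 0.45, 0.44, 0.73, 0.30 and 0.09. HLS animal 5 again stood alone in both muscles. The differences were 0.35 (adjusted p = 0.659) and 0.49 (adjusted p = 0.574) over all probes, of which 5.42% in soleus and 2.81% in gastrocnemius were called. Over the 20 arrays the probes followed each other with r = 0.96, and r = 0.97 after the group means were removed; both share the arrays and the transcript. By probe 2 soleus was above gastrocnemius in all 5 suspended and all 5 control animals, but the muscle difference was not called by either probe (probe 1: 0.31 in controls and 0.27 after suspension, adjusted p = 0.441 and 0.512).

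Foxo3, the FoxO factor best known for switching on the atrophy ligases, and Foxo4, a smaller relative, were dim, at 31.1 to 164.1 and 41.7 to 108.5 intensity units. The Foxo3 probes disagreed. Probe 1, which matches a cDNA clone that the file names Foxo3a, read -2.64, -3.39, -3.14, -3.23 and -3.40 in control soleus and -2.74, -2.61, -3.73, -3.03 and -2.66 after suspension. In gastrocnemius it read -2.48, -2.71, -2.75, -3.03 and -2.29 in controls and -2.06, -2.17, -2.52, -2.84 and -2.72 after suspension. The arms overlapped in both muscles, and the differences were 0.21 ± 0.21 in soleus (SE, limma, adjusted p = 0.679; 95% interval -0.23 to 0.65) and 0.19 ± 0.21 in gastrocnemius (adjusted p = 0.772).

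Probe 2, which matches the RefSeq transcript of Foxo3, read -3.30, -2.35, -3.49, -3.13 and -3.08 in control soleus and -2.75, -2.55, -3.08, -2.05 and -2.27 after suspension. In gastrocnemius it read -2.66, -2.68, -2.99, -2.90 and -2.64 in controls and -3.45, -2.68, -2.97, -3.02 and -2.75 after suspension, where 3 of 5 arrays were well above background. The arms overlapped again, through control 2 in soleus, while all 5 suspended soleus samples were above the other 4 controls. HLS 3 (-3.077) and control 5 (-3.083) nearly touched there. The difference was 0.53 ± 0.20 in soleus (SE, limma over all probes, adjusted p = 0.155) and -0.20 ± 0.20 in gastrocnemius (adjusted p = 0.744). The effect differed between muscles by 0.73 (adjusted p = 0.702), with an exact two-sided permutation p of 0.0317 over animals, unadjusted and 1 of 7 probes tested in this way; 0.0321% of probes were called for this difference. The probes did not follow each other over the 20 arrays (r = 0.04), so no single Foxo3 transcript value can be stated here.

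Between the muscles the Foxo3 probes also parted. Probe 1 was lower in soleus of controls by 0.51 (a difference of -0.51, adjusted p = 0.0664) and passed the test with the animal as a block (adjusted p = 0.0485). It was lower in soleus of all 5 control animals and of 4 suspended animals, where the difference was -0.49 (adjusted p = 0.0801; 0.0583 with the animal as a block). On the spike-in scale the control difference turned to 0.64, and a block for scan day gave -0.01. Probe 2 read -0.30 (adjusted p = 0.276 over all probes) in controls and 0.44 (adjusted p = 0.109) after suspension, where 33.1% and 30.6% of probes were called between the muscles.

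Foxo4 read -3.30, -2.30, -2.69, -3.16 and -2.75 in control soleus and -2.50, -2.85, -2.94, -3.70 and -2.52 after suspension. In gastrocnemius it read -2.65, -3.10, -2.82, -2.46 and -2.45 in controls and -2.14, -2.82, -2.76, -2.32 and -2.53 after suspension. The arms overlapped widely. The difference was -0.06 ± 0.22 in soleus (SE, limma, adjusted p = 0.927; 95% interval -0.52 to 0.40) and 0.18 ± 0.22 in gastrocnemius (adjusted p = 0.798; 95% interval -0.27 to 0.64). A change of the size seen for Depp1 lies outside these intervals.

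Over the 4 genes, each read by its brightest probe, limma called none for a difference of the HLS effect between muscles. Of all genes 0.00791% were called for it. By that probe none of the 4 had an unadjusted p under 0.05, against 5.76% of all genes. Foxo3 probe 2 had an unadjusted p of 0.019 there (limma over all probes). None of the 4 was called between the muscles of controls or of suspended animals, where 33.6% and 30.9% of all genes were called. By its brightest probe 1 of the 4, Foxo3, had an unadjusted p under 0.05 in each, against 43.7% and 41.8% of all genes. Foxo3 probe 2 had an unadjusted limma p of 0.161 in controls and 0.0441 after suspension. All these differences are relative to the 75th percentile. The E1A spike-in RNA, added in the same amount to each labelling, read 1.95 ± 0.05 in control soleus, 2.22 ± 0.22 in suspended soleus, 3.1 ± 0.10 in control gastrocnemius and 2.23 ± 0.15 in suspended gastrocnemius (SD, n = 5). Scaled to it, the median of all genes moved by -0.28 in the soleus comparison and by 0.87 in gastrocnemius. On that scale Depp1 rose by 2.27 in soleus and 2.72 in gastrocnemius, and Foxo1, Foxo3 and Foxo4 rose by 1.38, 1.06 and 1.06 in gastrocnemius along with most genes.

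Foxo6, the remaining FoxO gene of the mouse, is no member of the set and is given beside it. In gastrocnemius it read 3.09, 3.21, 2.85, 3.36 and 3.26 in controls and 2.17, 2.56, 2.78, 2.77 and 1.91 after suspension, without overlap. It fell there by 0.72 (a difference of -0.72 ± 0.18, limma, adjusted p = 0.0312); the call was lost without control 1, 2, 4 or 5 or without HLS 1 or 5 (adjusted p of 0.0518 to 0.0986), under a block for slide (-0.99, adjusted p = 0.452) or scan day (-0.98, adjusted p = 0.296) and with quantile normalization (-0.64, adjusted p = 0.0611), and the sign turned to 0.16 on the spike-in scale. In soleus it read 3.14, 3.53, 2.86, 3.03 and 3.21 in controls and 3.14, 3.41, 3.85, 3.94 and 3.45 after suspension, a difference of 0.40 ± 0.18 (adjusted p = 0.234). The difference of the effects was 1.12 ± 0.26 (adjusted p = 0.3) and -0.03 on the spike-in scale, and the exact permutation test over animals gave p = 0.00794, the smallest possible and unadjusted.

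**Figure D3:**
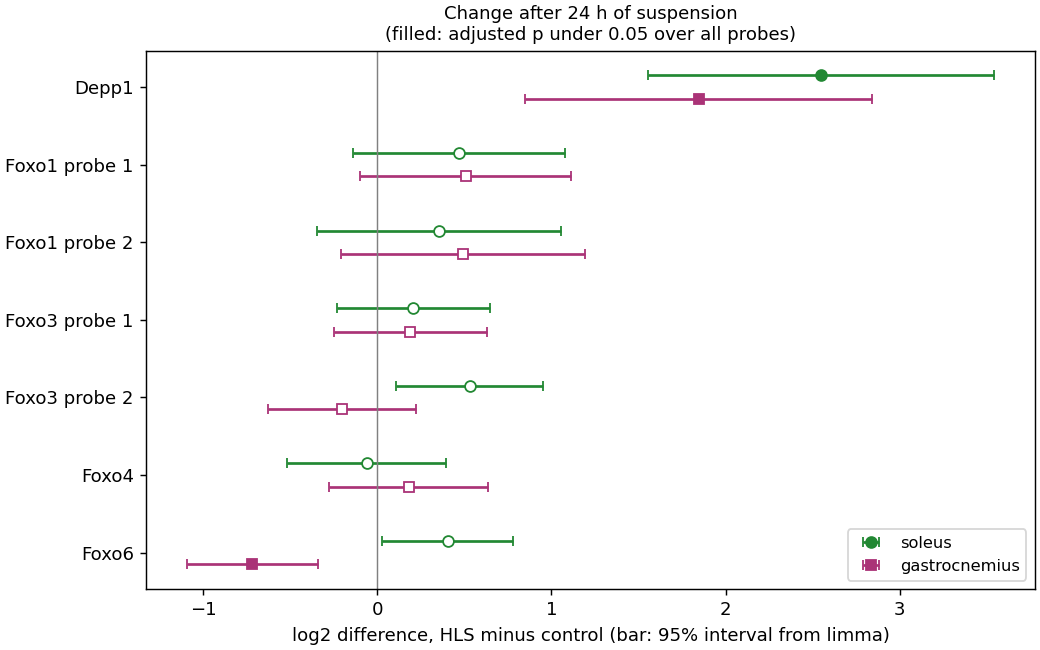
Points show the log2 difference between suspended and control animals for each probe in soleus (circles) and gastrocnemius (squares), with 95% intervals from limma on the horizontal axis; filled points had an adjusted p under 0.05 over all probes. Depp1 stands at 2.55 and 1.85, the intervals of the Foxo1, Foxo4 and first Foxo3 probes include 0, and Foxo6 is filled in gastrocnemius alone, where its sign turns on the spike-in scale.

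The regulators of FoxO factors were read from a list of 55 genes, of which 53 had a usable probe; Irs2 and Sgk2 are not analysed here. In soleus limma called 3 higher and 6 lower, and in gastrocnemius 2 higher and 4 lower. Over all genes 2.42% were called higher and 3.53% lower in soleus, and 1.17% and 2% in gastrocnemius. The median change of the list was -0.00 in soleus and 0.01 in gastrocnemius, against 0.05 and 0.01 over all genes. Irs1, the adaptor that carries the signal from the insulin and IGF1 receptors, fell the furthest of the list, by 2.03 in soleus (adjusted p = 3.46e-05) and by 1.48 in gastrocnemius (adjusted p = 0.00203). Blocking on slide gave -1.19 (adjusted p = 0.492) and -0.78 (adjusted p = 0.73), and 0 regulators were called in either direction in either muscle. A block for scan day left 0 higher and 4 lower in soleus and 0 of either in gastrocnemius, where Irs1 read -0.93 (adjusted p = 0.584).

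Below the receptors, Pik3ca, the catalytic subunit of PI3-kinase, fell by 0.85 in soleus (adjusted p = 4.43e-05) and by 0.50 in gastrocnemius (adjusted p = 0.0111). Ywhah, a 14-3-3 protein, fell by 0.68 (adjusted p = 0.00166) and by 0.60 (adjusted p = 0.00886). On the spike-in scale the gastrocnemius signs of Pik3ca and Ywhah turned, to 0.37 and 0.27. Of the subunits of the phosphatase PP2A, Ppp2ca fell by 0.88 in soleus (adjusted p = 0.000125) and read -0.37 in gastrocnemius (adjusted p = 0.122). Ppp2r5b fell by 0.50 in gastrocnemius (adjusted p = 0.00406; 0.37 on the spike-in scale) and read -0.25 in soleus (adjusted p = 0.133).

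Igf1r, the IGF1 receptor, rose by 0.56 in soleus (adjusted p = 0.02) and 0.59 in gastrocnemius (adjusted p = 0.0241), and Pik3r1, the regulatory subunit of PI3-kinase, by 0.52 in soleus (adjusted p = 0.0164). Setd7, a lysine methyltransferase, rose by 0.48 in soleus (adjusted p = 0.00802). Pdpk1, the kinase that activates AKT, rose by 0.55 in gastrocnemius by its brightest probe (adjusted p = 0.0319), but the mean of its probes gave -0.05. By the mean of probes Igf1r read 0.28 in gastrocnemius (adjusted p = 0.0987) and Setd7 0.38 in soleus (adjusted p = 0.0879). With median scaling Igf1r lost both calls (0.50 and 0.55, adjusted p = 0.0745 and 0.0743), and on the spike-in scale Igf1r, Pik3r1 and Setd7 lost theirs in soleus (0.28, 0.24 and 0.20). The number of regulators called higher in gastrocnemius fell to 0 without control 2, 3 or 5 or without HLS 3 or 5, and to 1 without control 1, HLS 1 or HLS 4. In soleus the Igf1r call was lost without control 4 or HLS 3 and the Pik3r1 call without HLS 5 (adjusted p of 0.0546 to 0.066).

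Transcripts of the kinases that phosphorylate FoxO factors were not called. Akt1 read a difference of -0.05 in soleus and -0.20 in gastrocnemius, Akt2 0.48 and 0.02, and Sgk1 0.83 (adjusted p = 0.133) and 0.23. Insr, the insulin receptor, read -0.25 (adjusted p = 0.226) and -0.21.

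Genes known as FoxO targets were read from a list of 72, of which 71 had a usable probe. In soleus limma called 14 higher and 2 lower, and in gastrocnemius 9 higher and 0 lower. The shares of all genes called were 2.42% higher and 3.53% lower in soleus, and 1.17% and 2% in gastrocnemius. This list, like those of regulators and forkhead box genes, was chosen with earlier results of these data known. Its counts are therefore not independent of these data. At an unadjusted p under 0.05 the numbers were 24 and 7 in soleus and 20 and 2 in gastrocnemius, against 9.44% and 8.5% of all genes in soleus and 6.82% and 7.84% in gastrocnemius. The list median was 0.12 in both muscles, against 0.05 and 0.01 over all genes. Many of these genes also respond to other signals, and the list shares Insr, Irs2 and Sgk1 with the regulators.

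Of the growth arrest and stress genes, Gadd45a, which is known for denervation atrophy, rose by 2.77 in soleus (adjusted p = 2.45e-06) and 1.37 in gastrocnemius (adjusted p = 0.00548). Ddit4, an inhibitor of mTORC1, rose by 2.14 (adjusted p = 0.0175; 1.79 and adjusted p = 0.0629 without HLS 5) and 2.55 (adjusted p = 0.00866). A slide block gave Ddit4 0.54 in soleus (adjusted p = 0.953), and a scan day block 1.71 (adjusted p = 0.172). Cdkn1a, the p21 cell cycle inhibitor, rose by 1.31 (adjusted p = 0.025) and 1.76 (adjusted p = 0.00554), with the soleus call lost without control 4, HLS 1 or HLS 5 (adjusted p of 0.0632 to 0.0709). Sesn1, a sestrin that restrains mTORC1, rose by 0.83 (adjusted p = 0.00132) and 0.82 (adjusted p = 0.00338).

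Among the ubiquitin ligases, Fbxo32 (atrogin-1) rose by 2.17 in soleus (adjusted p = 2.89e-06) and 2.43 in gastrocnemius (adjusted p = 2.81e-06). Trim63 (MuRF1) rose by 1.18 in soleus (adjusted p = 0.034), a call lost without control 2 or 4 or without HLS 1, 2 or 5 (adjusted p of 0.0561 to 0.112), and read 0.96 in gastrocnemius (adjusted p = 0.124). When limma used the arrays of the compared groups alone, Trim63 was called in gastrocnemius (adjusted p = 0.0138) and not in soleus (adjusted p = 0.14). Fbxo31 rose by 1.55 in soleus (adjusted p = 0.000107) and read 0.69 in gastrocnemius (adjusted p = 0.0868).

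The autophagy and metabolic targets were mixed. Map1lc3b, which coats autophagosomes, rose by 1.03 in soleus (adjusted p = 0.000181) and read 0.50 in gastrocnemius (adjusted p = 0.0795). Its relative Gabarapl1 read 0.27 (adjusted p = 0.468) and 0.21, and Bnip3, a mitophagy receptor, -0.56 (adjusted p = 0.0559) and 0.19. Pdk4, the kinase that shuts off pyruvate dehydrogenase in fasting, read -0.38 (adjusted p = 0.558) and 0.12, Klf15 0.55 (adjusted p = 0.186) and 0.69 (adjusted p = 0.113), and Ccng2, cyclin G2, 0.49 (adjusted p = 0.17) and 0.61 (adjusted p = 0.104).

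The 2 targets called lower were Trib1, a pseudokinase, which fell by 0.95 in soleus (adjusted p = 0.00409), and Ppargc1a, the co-activator of mitochondrial genes, which fell by 0.87 (adjusted p = 0.0204). The Ppargc1a call was lost without control 1 or HLS 5 (adjusted p = 0.0545 and 0.0706), which left 1 called lower, and without control 2 the number was 4. In gastrocnemius Trib1 read -0.37 and Ppargc1a -0.73 (adjusted p = 0.398 and 0.0836), and both signs turned on the spike-in scale. With slide as a block the number of targets called higher was 0 in soleus and 1 in gastrocnemius, with scan day 9 and 2, and with slide as a random block 15 and 10. Under the slide block the soleus values of Trim63, Sesn1 and Ppargc1a were 0.71, 0.52 and -1.56, and Cdkn1a read 3.06 in gastrocnemius, each without a call.

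**Figure D4:**
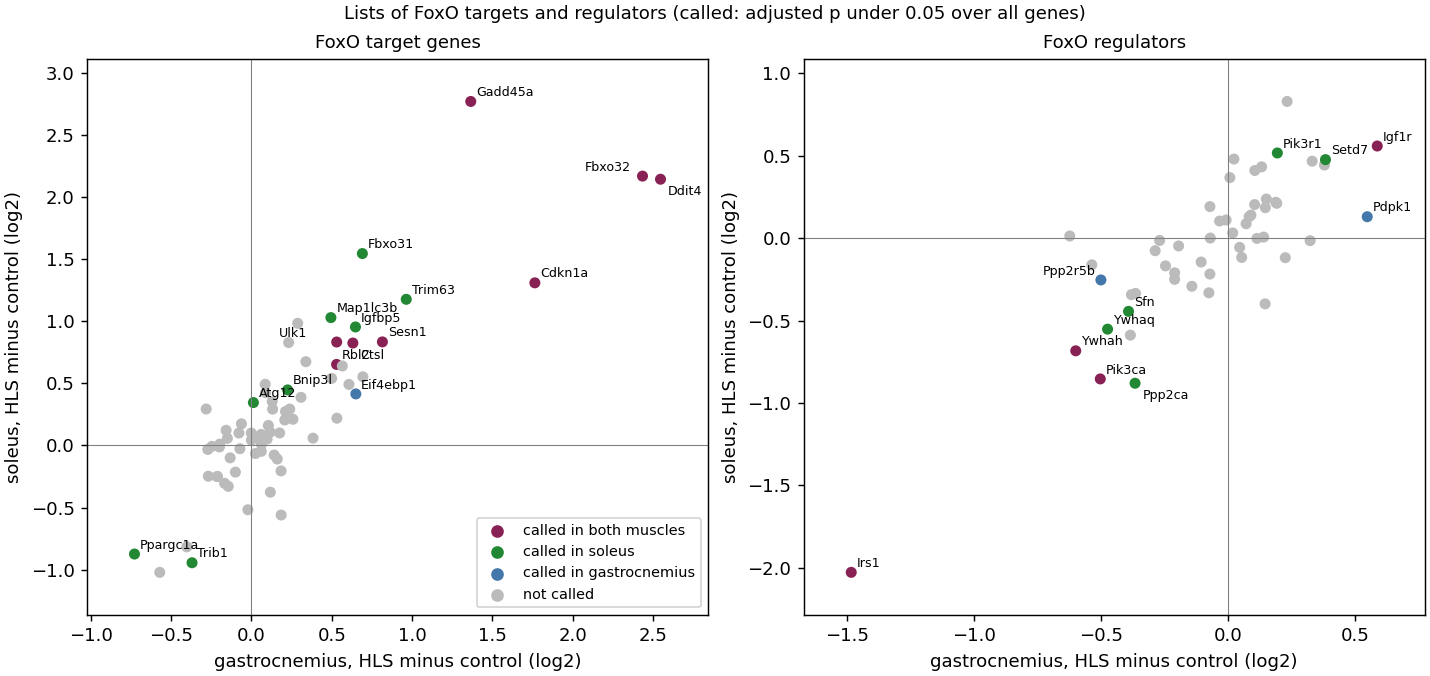
Each point is 1 gene of the target list (left) or the regulator list (right), with its log2 difference between suspended and control animals in gastrocnemius on the horizontal axis and in soleus on the vertical axis; colours show where limma called it. Called targets lie mostly at the upper right, up to 2.77 for Gadd45a, and Irs1 lies at the lower left at -2.03 in soleus.

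Of 39 forkhead box genes, 32 had a usable probe. Limma called none higher in either muscle, 1 lower in soleus and 2 lower in gastrocnemius. Over all genes 2.42% were called higher and 3.53% lower in soleus, and 1.17% and 2% in gastrocnemius. At an unadjusted p under 0.05, 2 were higher and 1 lower in soleus, and 1 was higher and 3 lower in gastrocnemius. The shares of all genes at that unadjusted p were 9.44% and 8.5% in soleus, and 6.82% and 7.84% in gastrocnemius. Foxs1, a forkhead gene of perivascular cells, fell by 0.68 in soleus (adjusted p = 0.000514) and by 0.51 in gastrocnemius (adjusted p = 0.0109; 0.36 on the spike-in scale), and Foxo6 was the other. Foxs1 read -0.42 and -0.31, without a call, under the slide block. Of 10 smooth muscle and pericyte markers, limma called 0 higher in either muscle (0 at an unadjusted p under 0.05 as well), 2 lower in soleus and 1 lower in gastrocnemius. At that unadjusted p 4 were lower in soleus and 5 in gastrocnemius, against 8.5% and 7.84% of all genes. Their mean log2 level ran from 3.14 to 3.45 in control and 2.81 to 2.99 in suspended gastrocnemius, without overlap, and from 3.15 to 3.91 and 2.84 to 3.47 in soleus, with overlap. Their summed level overlapped in both muscles, at 300.0 to 374.3 and 275.4 to 333.4 in gastrocnemius and 241.1 to 412.6 and 252.7 to 381.5 in soleus. Their part in the fall of Foxs1 was not tested.

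Genes whose values ran most like each member over the 20 arrays were taken by Pearson r, as a description; the arrays share muscles, arms and slides. For Depp1 they were Eda2r (r = 0.93, and 0.79 after removing group means), Gucd1 (0.91 and 0.68), Castor2 (0.88 and 0.53), Chac1 (0.88 and 0.58) and Tmco6 (0.88 and 0.61). All 5 were called higher in both muscles, from 0.88 for Tmco6 to 3.38 for Chac1 in soleus. Since they were chosen by likeness over arrays of both arms, these calls follow in part from the choice. For Foxo1 they were Usp54 (0.86), Agfg2 (0.84), 1200016E24Rik (0.84), Arrdc3 (0.83) and Mt1 (0.82), of which Usp54 alone was called, in soleus (1.03, adjusted p = 0.0438). Foxo1 and Depp1 correlated at r = 0.51, and at 0.19 after removing group means. For Foxo3 (probe 1) and Foxo4, both dim, the nearest genes reached 0.88 (TC1479877) and 0.81 (LOC434536), and none of the 5 for either was called in an HLS comparison.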

How the data were processed

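The authors deposited linear spot intensity, made per the file headers with Agilent's Feature Extraction, version 9.1.3.1; the authors' series table equalled these values within 0.497% and served as an alternative. The labelling took 600 ng of total RNA and a spike-in mix, per the labels' protocols. Uneven spots (3 to 43 an array) were dropped, intensities were divided by the 75th percentile of the non-control spots of their array, and log2 values were averaged per probe. Probes well above background on 4 or more of 5 arrays in any group were kept, and the brightest kept probe stood for a gene. A means model over 20 arrays was fitted with limma 3.58.1 in R 4.3.3 and tested on simulated data; tests are two-sided. Probes were named by accession (22951), symbol (6659), older symbol (3109) or the file (8455). The Foxo4 probe is written Mllt7 and the Depp1 probe 8430408G22Rik in the files. Members, lists and tests were chosen with earlier results of these data known. Named genes were all members, Foxo6, 16 pathway genes whatever their values (1 of them is not reported here) and, per list and HLS comparison, up to 4 called genes at each end. Per the labels, both muscles of 1 number came from 1 animal; their deviations from group means correlated at -0.34 to 0.17 over 10 animals. Alternatives were other scalings, background correction, filters, probe rules, batches, blocks and leaving out each array. Figures were drawn with matplotlib.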

Additional observations from a re-analysis of the deposited data

Results flagged for a closer look

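A sample far from the other 4 of its group was found 3 times in 24 groups tested (6 probes in each of 4 groups), where chance gives about 1 in 20, and each time it was HLS animal 5 and Foxo1. In soleus, probe 1 read 3.06 in that animal against 1.63 to 1.92 in the others, and probe 2 read 2.66 against 0.80 to 1.14. In gastrocnemius, probe 2 read 2.33 against 0.34 to 0.71. The 3 are not independent, since both probes read 1 transcript and both muscles came from 1 mouse. Why this animal differed was not tested.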

How the results depend on the processing

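Depp1 kept its direction in both muscles under every alternative run, and its soleus call in 22 of 25 and its gastrocnemius call in 15 of 23. Causes of the changes below were not tested. Counts are of genes called over all genes, against 1504 in soleus, 801 in gastrocnemius, 2 for the difference of HLS effects and 8488 between the muscles of controls. With normexp background correction, Foxo4 read 0.15 in soleus, Akt2 -0.0035 in gastrocnemius, Foxo4 0.095 and the count 4 for the difference of effects, and Foxo6 0.019 between control muscles. With quantile normalization, Akt1 read 0.013 in soleus, Foxo3 -0.030 and the count 6 for the difference of effects, and Foxo4 0.13 between control muscles. With the percentile over probes detected on all arrays, Foxo3 gained a call between control muscles at -0.57, as it did at -0.51 with the arrays of the compared groups alone, where the soleus count was 705. With median scaling, Akt2 read -0.018 in gastrocnemius, Foxo3 -0.0031 and the count 1 for the difference of effects, and Foxo4 0.020 and Foxo6 0.16 between control muscles. The share of called genes that were higher was then 28.7% in soleus, 27.0% in gastrocnemius, 64.5% between control muscles and 66.2% between suspended muscles, against 40.6%, 36.8%, 37.8% and 43.1%.

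With spike-in scaling the counts were 3455 in soleus (4.6% higher), 24082 in gastrocnemius (99.9% higher), 23930 for the difference of effects and 23285 between control muscles (99.6% higher). In soleus, Foxo3 then read -0.069, Gabarapl1 -0.0041 and Pdpk1 -0.15. In gastrocnemius, Foxo1 (1.38), Foxo3 (1.06) and Foxo4 (1.06) gained calls, and signs turned for Foxo6 (0.16), Akt1 (0.68), Insr (0.66), Ppp2ca (0.51), Pik3ca (0.37), Ywhah (0.27), Ppp2r5b (0.37), Trib1 (0.50), Ppargc1a (0.15) and Foxs1 (0.36). For the difference of effects, Foxo1 (-1.19) and Foxo4 (-1.39) gained calls, Foxo3 turned to -1.13, Depp1 to -0.45 and Foxo6 to -0.031. Between control muscles, Foxo1 (1.46) and Depp1 (1.38) gained calls, and Foxo3 (0.64), Foxo4 (1.01) and Foxo6 (1.15) turned. Without a filter the count for the difference of effects was 1. With the mean of all kept probes it was 0, Akt1 read 0.030 and Pdpk1 -0.11 in soleus, and Foxo3 -0.0055, Insr 0.079 and Pdpk1 -0.045 in gastrocnemius.

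With slide as a block, Depp1 lost its calls at 2.85 and 3.36, the counts were 22 and 10, Foxo1 read -0.23, Pdk4 0.24 and Klf15 -0.11 in soleus, Pdk4 -0.34 in gastrocnemius, and for the difference of effects Foxo3 -0.25, Depp1 -0.51 and the count 0. Without soleus HLS 1 as well, a choice made after the data had been seen, as was the random block for the HLS comparisons, Depp1 lost its call at 2.25, the soleus count was 20, Foxo1 read -0.16, Pdk4 0.30, Klf15 -0.063, Sgk1 -0.26, Akt1 0.072 and Akt2 -0.017, and for the difference of effects Foxo3 -0.40, Depp1 -1.11 and the count 0. With slide as a random block, the count for the difference of effects was 4 and Foxo6 read 0.0018 between control muscles. With scan day as a block, Foxo4 read 0.079 and the count 776 in soleus, Depp1 lost its call at 3.09, Pdk4 read -0.055 and the count 16 in gastrocnemius, Foxo1 0.15, Foxo3 -0.45, Depp1 -0.32 and the count 0 for the difference of effects, Foxo1 -0.26, Foxo4 0.32 and the count 1374 between control muscles, and Foxo1 -0.11 between suspended muscles. Without soleus HLS 1 as well, Depp1 lost its call at 2.17, the soleus count was 385, Foxo3 read -0.0085 and Akt1 0.12 in soleus, Foxo1 0.22, Foxo3 -0.60, Depp1 -0.92 and the count 1 for the difference of effects, and Foxo1 -0.041 between suspended muscles.

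With the animal as a replicate block, Foxo3 gained a call between control muscles (-0.51) and Depp1 between suspended muscles (0.92), the count for the difference of effects was 0, and no other call of a member changed; without soleus HLS 1 as well, an added choice, Depp1 read 0.88 with its call and the count for the difference of effects was 1. Equal numbers in the arms mark different mice (correlations of -0.30 to 0.17, median -0.02, over 10 pairs). With that number as a replicate block Depp1 read 2.55 and 1.85, and the counts were 1502 and 820.

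Leaving out each array in turn gave 1.54 to 2.11 for Depp1 and 444 to 663 for the count in gastrocnemius, and 1 to 13 for the count of the difference of effects. Signs turned within the ranges of Foxo4 (-0.18 to 0.14) and Akt1 (-0.13 to 0.047) in soleus, Pdk4 (-0.082 to 0.26) and Akt2 (-0.19 to 0.12) in gastrocnemius, Foxo1 (-0.30 to 0.26) and Foxo3 (-0.077 to 0.21) for the difference of effects, and Depp1 (-0.043 to 0.49) and Foxo6 (-0.093 to 0.073) between control muscles, where Foxo3 ranged from -0.64 to -0.42 and gained calls. The Foxo4 probe was well above background on 20 of 20 arrays and the Foxo3 probes on 19 and 18.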
